A study of Mus musculus with 4 samples.

Results

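The 10 genes described here make, or respond to, eicosanoids, the oxygenated lipids that cells derive from arachidonic acid. They are a list of gene symbols with no threshold on their values, and all 10 were found among the 14435 genes of the expression table. The set holds 1 phospholipase (Pla2g4a), both prostaglandin H synthases (Ptgs1 and Ptgs2, the cyclooxygenases COX-1 and COX-2), 3 prostaglandin E synthases (Ptges, Ptges2 and Ptges3), 3 genes of leukotriene synthesis (Alox5, Alox5ap and Lta4h) and 1 prostaglandin receptor (Ptger4). RNA was sequenced in RAW264.7 cells, an established line of mouse macrophages, after 12 hours with lipopolysaccharide (LPS) of E. coli, a ligand of the receptor TLR4. The 2 libraries called shMettl3 came from cells transfected with an shRNA against Mettl3, and the 2 called Control from cells transfected with a nonspecific shRNA. Mettl3 encodes the catalytic subunit of the enzyme complex that writes the mark N6-methyladenosine (m6A) into RNA. LPS was given to the cells of all 4 libraries, so these data hold no unstimulated baseline, and the labels do not say whether the cells of a group were 1 clone or several.

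In a macrophage, cytosolic phospholipase A2 frees arachidonic acid from membrane lipids. The cyclooxygenases turn it into prostaglandin H2, from which terminal synthases make prostaglandin E2 (PGE2), thromboxane, prostacyclin or prostaglandin D2, while 5-lipoxygenase opens the separate branch that leads to leukotrienes. Macrophages exposed to LPS are known to induce Ptgs2 and Ptges together, and PGE2 acts back on the same cells through the receptors EP2 and EP4, which raise cyclic AMP.

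The totals of estimated counts lay between 16342313 and 16767622 in the shMettl3 libraries and between 17142599 and 17193639 in the Control libraries. Mettl3 was lower in both shMettl3 libraries, at 194 and 195 estimated counts against 514 and 496 in the Control libraries, a log2 fold change of -1.42 (SE 0.10). For shMettl3 replicate 2 the treatment label reads METTL4, but the sample's title reads Mettl3 and its Mettl3 level was as low as that of replicate 1. No label states whether both libraries of a group were grown as separate cultures, and p-values therefore reflect the spread between these 4 samples only, which may be technical. A gene is said to have risen or fallen where the quasi-likelihood test of edgeR gave a p below 0.05 after Benjamini-Hochberg adjustment across the 11035 genes tested. Levels are given as CPM, the counts divided by TMM-scaled library size, or, between genes, as the authors' TPM, which also corrects for transcript length. Changes are log2 fold changes, shMettl3 over Control, with their standard error (SE), and n = 2 in each group throughout.

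4 of the 10 eicosanoid genes rose in the shMettl3 libraries and 0 fell, where 21.4% of all tested genes rose and 22.3% fell, or 43.7% in either direction. Without Ptgs1, which came into the test through the group where it is high, 3 of 9 rose. The 4 were Ptgs2, Ptges, Alox5 and Ptgs1, with log2 fold changes between 0.32 and 1.31. The other 6 genes did not pass the test, and their log2 fold changes lay between -0.27 and 0.12. The median over the 10 genes was 0.06, or -0.01 without Ptgs1, beside 0.01 over all tested genes. In CPM the groups did not overlap for 5 of the 10 genes with the shMettl3 libraries higher (37.1% of all tested genes) and for 2 with the shMettl3 libraries lower (36.3%). Those 7 of 10 genes stand beside 73.4% of all tested genes in either direction.

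The promoters of the 4 genes that rose are shown because these genes moved in the same direction. They are RefSeq sequences on GRCm38.p6, from 250 bases before to 50 bases after the annotated start, 5′ to 3′ on the strand of the gene, and 9 of the 10 genes matched an entry of that table. Capitals mark the motifs searched on both strands, which were the C/EBP site TTGCGCAA, the half-site CGTCA of the cyclic AMP response element, the E-box CACGTG, the AP-1 site TGANTCA, the GC box GGGCGG and the consensus site of NF-kB. The windows are chr1:150099781-150100080 on the plus strand for Ptgs2, chr2:30903248-30903547 on the minus strand for Ptges, chr6:116461129-116461428 on the minus strand for Alox5 and chr2:36230176-36230475 on the plus strand for Ptgs1.
Ptgs2: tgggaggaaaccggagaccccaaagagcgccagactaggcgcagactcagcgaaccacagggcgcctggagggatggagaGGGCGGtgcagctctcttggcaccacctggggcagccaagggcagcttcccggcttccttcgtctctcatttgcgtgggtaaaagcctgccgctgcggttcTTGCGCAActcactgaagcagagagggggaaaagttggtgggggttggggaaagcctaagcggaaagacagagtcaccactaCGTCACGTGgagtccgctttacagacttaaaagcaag
Ptges: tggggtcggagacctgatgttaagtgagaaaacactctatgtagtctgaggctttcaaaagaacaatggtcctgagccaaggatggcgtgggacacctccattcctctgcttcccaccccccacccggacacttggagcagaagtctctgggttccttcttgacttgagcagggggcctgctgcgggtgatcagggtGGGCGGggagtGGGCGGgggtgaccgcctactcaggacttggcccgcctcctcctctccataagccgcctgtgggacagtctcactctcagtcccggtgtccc
Alox5: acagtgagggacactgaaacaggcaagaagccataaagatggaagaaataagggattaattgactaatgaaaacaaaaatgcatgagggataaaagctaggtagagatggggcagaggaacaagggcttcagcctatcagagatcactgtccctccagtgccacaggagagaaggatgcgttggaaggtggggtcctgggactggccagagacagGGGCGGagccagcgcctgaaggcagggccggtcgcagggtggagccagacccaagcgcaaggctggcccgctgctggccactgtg
Ptgs1: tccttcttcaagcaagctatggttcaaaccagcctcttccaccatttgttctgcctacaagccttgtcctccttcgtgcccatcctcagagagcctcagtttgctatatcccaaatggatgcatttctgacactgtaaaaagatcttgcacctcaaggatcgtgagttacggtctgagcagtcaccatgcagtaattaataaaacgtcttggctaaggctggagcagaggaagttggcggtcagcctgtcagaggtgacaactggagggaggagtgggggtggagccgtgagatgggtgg
Positions count the first base of the annotated RefSeq start as 1. Where transcription began in these cells was not measured, so a positive position need not lie within the transcript. The window of Ptgs2 held 4 matches. Its C/EBP site lay at -69 to -62, and this motif was present in 0.183% of the 32851 promoters of the table. Its half-site CGTCA lay at 14 to 18 and overlapped the E-box at 17 to 22, with these motifs in 20.8% and 7.15% of all promoters. A GC box, found in 35.7% of all promoters, was present once in the windows of Ptgs2 and Alox5, and the window of Ptges held 2. The window of Ptgs1 held none of the 6 motifs. The AP-1 site (7.81% of all promoters) and the NF-kB consensus (8.46%) had no match in the 4 windows, which says only that these letters are not in these bases. Genes that were not called held matches too. The window of Ptges3 held 6, which were 4 GC boxes, a CGTCA half-site and the only NF-kB match among the 9 genes, and that of Ptger4 held 4 GC boxes.

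**Figure D1:**
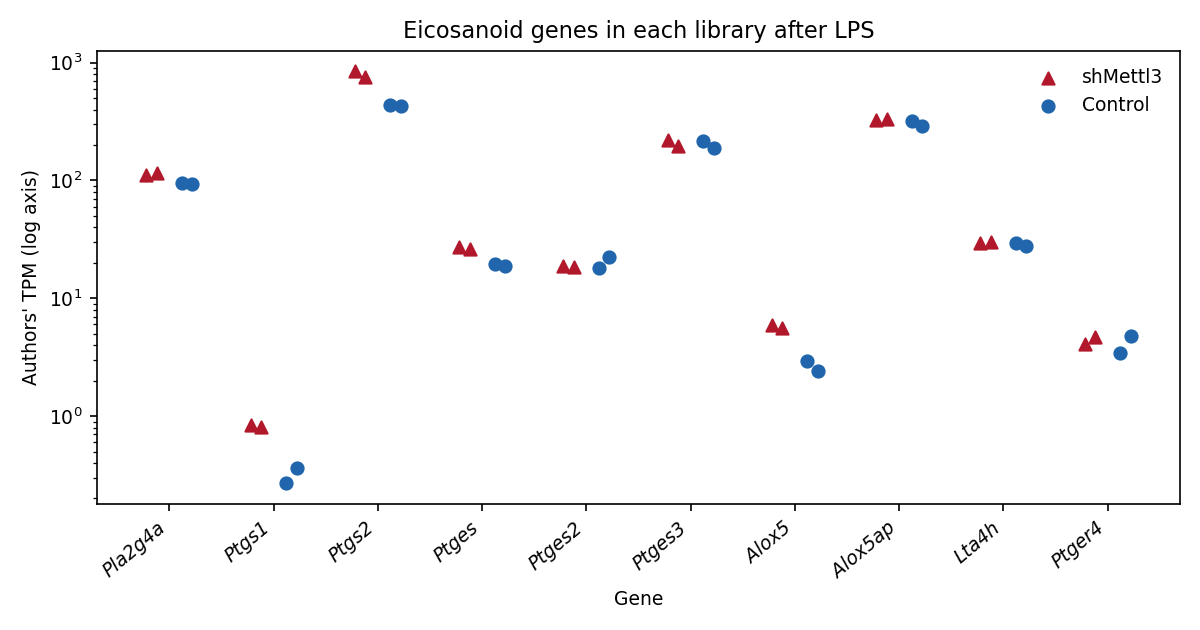
Authors' TPM on a log axis for each of the 10 eicosanoid genes, in the order of their steps. Each point is 1 library, with shMettl3 libraries as triangles and Control libraries as circles. Ptgs2 is the highest in every library, at 844 and 754 TPM in shMettl3 and 434 and 429 TPM in Control, and Ptgs1 the lowest.

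The levels of the 10 genes covered a wide range. Ptgs2 ranked 185 and 196 among all genes by TPM in the shMettl3 libraries, against 328 and 334 in the Control libraries. Below it came Alox5ap, Ptges3 and Pla2g4a in both groups, with means of 331 ± 4.48, 209 ± 15.4 and 113 ± 3.09 TPM in shMettl3 libraries (SD, n = 2) against 305 ± 19.0, 203 ± 17.2 and 94.1 ± 1.29 TPM in Control libraries. Lta4h followed, at 29.7 ± 0.47 TPM in shMettl3 and 28.6 ± 0.91 TPM in Control libraries. The next places differed between the groups. Ptges, at 27.2 and 26.1 TPM, lay above Ptges2, at 18.8 and 18.4 TPM, in the shMettl3 libraries. In the Control libraries these 2 genes overlapped, with 19.7 and 19.0 TPM for Ptges and 18.3 and 22.4 TPM for Ptges2. Alox5 stood above Ptger4 in the shMettl3 libraries, at 5.97 and 5.65 TPM beside 4.10 and 4.69 TPM, and below it in the Control libraries, at 2.96 and 2.41 TPM beside 3.43 and 4.83 TPM. Ptgs1 was the lowest of the 10, under 1 TPM in all 4 libraries.

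Pla2g4a encodes cytosolic phospholipase A2 alpha, the enzyme that releases arachidonic acid from membranes when calcium rises. It had 179 and 187 CPM in the shMettl3 libraries against 168 and 170 CPM in the Control libraries. The groups did not overlap, but the change of 0.12 (SE 0.07) missed the threshold, with an adjusted p of 0.191 in edgeR. Its 95% interval, from -0.03 to 0.27, includes no change. With library size alone as the scaling Pla2g4a was called (0.21, adjusted p = 0.0274), as it was with the authors' FPKM (0.21 and 0.20 under the 2 pseudocounts) and TPM (0.26 under either pseudocount). These scalings also moved the median of all genes, which was 0.0141 with TMM factors. It was 0.11 with library size alone, 0.0994 and 0.085 with FPKM, and between 0.14 and 0.15 with TPM. In the RefSeq order of genes 2 entries lie between Pla2g4a and Ptgs2 on chromosome 1, a pseudogene and the non-coding RNA Ptgs2os, which were not analysed here.

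Ptgs2 carried almost all of the measured cyclooxygenase mRNA and rose. It had 36544 and 33982 estimated counts, or 2174 and 1953 CPM, in the shMettl3 libraries, and 20309 and 20647 counts, or 1222 and 1244 CPM, in the Control libraries. Both shMettl3 libraries were above both Control libraries, and the spread within a group was smaller than the gap between them. Its log2 fold change came to 0.74 (SE 0.07) with an adjusted p of 1.53e-05 in edgeR, a 1.67-fold difference. Its 95% interval ran from 0.58 to 0.90 on the log2 scale. The call held in all alternatives run, with a log2 fold change of 0.66 without shMettl3 replicate 1 and 0.82 without shMettl3 replicate 2. Ptgs2 made up 99.9% of the summed TPM of both cyclooxygenases in each of the 4 libraries. The longest coding transcript of Ptgs2 in GENCODE M21 has 15 copies of ATTTA, the core letters of AU-rich elements that destabilise mRNA, or 3.37 per 1000 bases, and 1.70% of 10851 tested genes have as many or more per length. It has 8 copies of GGACT, the commonest letters of the m6A consensus, or 1.80 per 1000 bases, a density that 15.8% of tested genes reach. No m6A was measured, so these counts describe the sequence only.

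Ptgs1, the cyclooxygenase that many tissues express constitutively, was close to the lower end of what these libraries could measure. It had 24 and 25 estimated counts in the shMettl3 libraries against 8 and 11 in the Control libraries, or 1.43 and 1.44 CPM against 0.481 and 0.663 CPM. The log2 fold change of 1.31 was the largest of the 10 genes and also the least precise (SE 0.36, adjusted p = 0.0122 in edgeR, 95% interval 0.52 to 2.10). Both shMettl3 libraries and 1 of the 2 Control libraries were above the minimum count of the filter, so the gene came into the test through the group where it is high. Its call was lost without shMettl3 replicate 1 (adjusted p = 0.0781), without shMettl3 replicate 2 (0.0741), without Control replicate 1 (0.0714) and in DESeq2 (0.13). Its share of the cyclooxygenase TPM was 0.0994% and 0.107% in the shMettl3 libraries against 0.0621% and 0.0839% in the Control libraries.

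Among the 3 prostaglandin E synthases 1 rose. Ptges encodes the microsomal, inflammation-induced synthase mPGES-1, which converts prostaglandin H2 to PGE2. It had 57.0 and 54.8 CPM in the shMettl3 libraries against 45.0 and 44.7 CPM in the Control libraries, and the groups did not overlap. Its log2 fold change came to 0.32 (SE 0.07) with an adjusted p of 0.00482 in edgeR, a 1.25-fold difference with a 95% interval from 1.12 to 1.40. Without shMettl3 replicate 1 it was 0.29 and not called (adjusted p = 0.0659). Ptges was the only one of the 10 genes with no ATTTA in its longest coding transcript, and it had 5 copies of GGACT. Ptges spans 2 other RefSeq entries and Alox5 spans 1, none of them in the table, and reads of overlapping genes cannot be told apart without strand.

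Ptges2 encodes the membrane-associated synthase mPGES-2, which is made constitutively. It had 20.3 and 19.8 CPM in the shMettl3 libraries against 21.4 and 27.1 CPM in the Control libraries. The shMettl3 libraries were both lower, and the Control libraries differed from each other by more than the first of them did from the shMettl3 libraries. Its change of -0.27 (SE 0.12) missed the threshold (adjusted p = 0.0871 in edgeR). It was -0.45 and called without Control replicate 1 (adjusted p = 0.00222), and -0.10 without Control replicate 2.

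Ptges3 encodes p23, a co-chaperone of HSP90 that also has cytosolic prostaglandin E synthase activity. It had 240 and 215 CPM in the shMettl3 libraries against 253 and 232 CPM in the Control libraries, and the groups overlapped. Its change on the log2 scale, -0.09 (SE 0.08), missed the threshold, with a 95% interval from -0.27 to 0.09, and its sign turned with TPM (0.04) and was 0.00 with library size alone. By length Ptges3 was the most abundant of the 3, with 82.7% and 81.7% of their summed TPM in the shMettl3 libraries against 85.0% and 82.2% in the Control libraries. The share of Ptges was 10.2% and 10.8% in the shMettl3 libraries, above the 7.79% and 8.18% in the Control libraries. These shares are descriptions and were not tested.

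**Figure D2:**
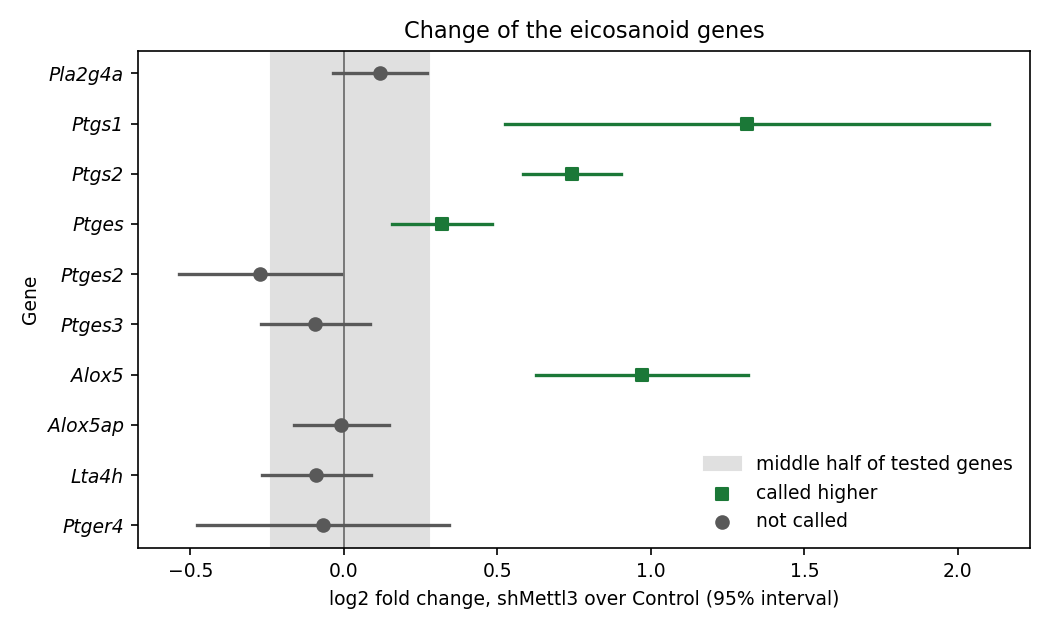
Log2 fold change, shMettl3 over Control, of each of the 10 genes with its 95% interval from edgeR's quasi-likelihood fit. The grey band runs from -0.24 to 0.28, the interquartile range of all tested genes, and squares mark the 4 genes called higher.

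In the leukotriene branch the lipoxygenase itself rose, and its activating protein and the hydrolase were not called. Alox5 encodes 5-lipoxygenase, which makes leukotriene A4 from arachidonic acid. It had 161 and 158 estimated counts, or 9.58 and 9.08 CPM, in the shMettl3 libraries against 86 and 72 counts, or 5.18 and 4.34 CPM, in the Control libraries. The groups stood clear of each other, and Alox5 differed by 0.97 on the log2 scale (SE 0.16) with an adjusted p of 5.31e-04 in edgeR, or 1.96-fold with a 95% interval from 1.54 to 2.49. It stayed called in all alternatives run, with log2 fold changes between 0.84 and 1.09 when 1 library was left out.

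Alox5ap encodes FLAP, the membrane protein that presents arachidonic acid to 5-lipoxygenase. It had 172 and 172 CPM in the shMettl3 libraries against 178 and 168 CPM in the Control libraries, so the groups overlapped. The log2 fold change was -0.01 (SE 0.07), and its 95% interval from -0.16 to 0.15 leaves room for a change of at most 1.11-fold up or to 0.894 of the Control level. By TPM its mRNA was many times that of Alox5 in every library. Its longest coding transcript has 4 copies of GGACT, or 3.20 per 1000 bases, a density reached by 1.41% of tested genes. Lta4h encodes leukotriene A4 hydrolase, which makes the neutrophil attractant leukotriene B4. It had 33.7 and 34.4 CPM in the shMettl3 libraries against 36.4 and 36.0 CPM in the Control libraries. The groups did not overlap, but the difference of -0.09 (SE 0.08) on the log2 scale missed the threshold (adjusted p = 0.395 in edgeR), and its sign turned with library size alone (0.01) and TPM (0.05).

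Ptger4 encodes EP4, the receptor through which PGE2 raises cyclic AMP in macrophages. It had 129 and 153 estimated counts in the shMettl3 libraries against 117 and 170 in the Control libraries, or 7.67 and 8.79 CPM against 7.04 and 10.2 CPM. Both shMettl3 values lay between the 2 Control values. The difference of -0.07 (SE 0.18) on the log2 scale missed the threshold, and its 95% interval from -0.48 to 0.34 is wide. Leaving out Control replicate 1 gave -0.33 and leaving out Control replicate 2 gave 0.22, and neither was called.

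The libraries also differed in markers of the cell type. 7 of 9 tested macrophage markers fell and 0 rose, where 22.3% of all tested genes fell and 21.4% rose. Spi1 (-0.06, SE 0.07) and Fcgr1 (0.83, SE 0.31) were not called. Fcgr1 was higher, at 126 and 103 CPM in the shMettl3 libraries against 79.4 and 49.9 CPM in the Control libraries. The macrophage list summed to 8783 and 8743 CPM in the shMettl3 libraries against 13637 and 13982 CPM in the Control libraries. Most of these sums came from Lyz2, Cd14 and Cd68. In bulk RNA, fewer cells of a type and less RNA per cell cannot be told apart. The 6 fibroblast markers in the table summed to 5.06 and 2.07 CPM in the shMettl3 libraries against 0.421 and 0.362 CPM in the Control libraries. Both fibroblast markers that could be tested rose in both shMettl3 libraries, at counts that reached the filter's minimum in shMettl3 libraries alone. Fap had 14 and 15 counts in the shMettl3 libraries against 2 and 1 in the Control libraries (3.13, SE 0.60). Pdgfrb had 20 and 15 counts in the shMettl3 libraries against 5 and 4 in the Control libraries (1.89, SE 0.46). Of the untested ones, Col1a1, Col1a2 and Col3a1 had 17, 15 and 15 counts in shMettl3 replicate 1, against 1, 0 and 0 in shMettl3 replicate 2 and 0 in both Control libraries. The platelet markers summed to 19.2 and 22.2 CPM in the shMettl3 libraries against 15.045 and 13.6 CPM in the Control libraries, most of it Vwf. Of the 2 tested Vwf rose (0.65) and Pf4 fell (-1.78) at 4 and 6 counts in shMettl3 against 15 and 19 in Control libraries. For Pf4 neither shMettl3 library reached the minimum count of the filter, so it came into the test through the Control group, where it is high. The lymphocyte markers summed to at most 1.07 CPM and the neutrophil markers to between 6.38 and 7.20 CPM. The mast cell list stood at 28.7 and 25.2 CPM in shMettl3 against 62.8 and 60.4 CPM in Control libraries, nearly all of it Hdc, which macrophages also express, with Cma1 at 0 or 1 count. The part of these differences in the results on eicosanoid genes was not tested.

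Lists of further genes of the pathway give the surroundings of the 10, and the counts below leave the 10 out. Each count stands beside the 21.4% of all tested genes that rose and the 22.3% that fell. Of the other prostanoid synthases 3 of 4 tested rose and 0 fell, with a median of 0.63. Hpgds, the haematopoietic prostaglandin D synthase, rose to 46.1 CPM in shMettl3 libraries against 23.8 CPM in Control libraries (0.96, SE 0.10). Akr1b3, an aldose reductase that can make prostaglandin F2 alpha, rose by 0.31 (SE 0.08). Tbxas1, the thromboxane synthase, rose on few reads, with 32 and 21 counts in the shMettl3 libraries against 9 and 7 in the Control libraries (1.67, SE 0.40). Neither Control library reached the minimum count of the filter, so Tbxas1 came into the test through the group where it is high, and without it 2 of 3 rose with a median of 0.31. Without shMettl3 replicate 1 only Hpgds of these was called, and Tbxas1 was not called in DESeq2 (adjusted p = 0.0512). Without Control replicate 1, or when low counts were not filtered, 1 gene of this list fell. Together with Ptgs1, Ptgs2 and Ptges, 6 of the 9 tested prostanoid synthases rose. That count was 2 without shMettl3 replicate 1, and 4 of 7 when Ptgs1 and Tbxas1 were left out.

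In the list of phospholipases and arachidonate handling 3 of 16 tested genes rose and 2 fell, with a median of -0.01. Of all tested genes 21.4% rose and 22.3% fell. The largest rise was in Pla2g5, a secreted phospholipase A2, at 139 and 124 CPM in the shMettl3 libraries against 31.2 and 29.6 CPM in the Control libraries (2.11, SE 0.08, adjusted p = 3.43e-08 in edgeR). In shMettl3 libraries it averaged 112 TPM, beside 113 TPM for Pla2g4a, and in Control libraries 23.4 TPM beside 94.1 TPM. Pla2g2e, another secreted phospholipase A2, rose as well (1.37, SE 0.20), as did Plaa, a phospholipase A2 activating protein (0.25, SE 0.08). The fatty acid desaturases Fads1 (-0.34, SE 0.09) and Fads2 (-0.61, SE 0.14), which act in the synthesis of arachidonic acid, fell. Plaa lost its call in DESeq2 and without either shMettl3 library or Control replicate 2, and Fads1 with FPKM, with TPM and without shMettl3 replicate 1. 5 genes of this list rose and 6 fell without Control replicate 1, and 4 fell without shMettl3 replicate 2 or when low counts were not filtered. With library size alone 5 rose and 2 fell, with TPM 5 rose and 1 fell, and with FPKM 4 rose and 1 fell. Without shMettl3 replicate 1, shMettl3 replicate 2 or Control replicate 2, 2 rose.

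Of the other genes of lipoxygenases and leukotriene synthesis 1 of 4 tested rose and 2 fell, with a median of -0.34. The 2 that fell were Ltc4s and Mgst2. Ltc4s, the leukotriene C4 synthase, had 42 and 35 counts in the shMettl3 libraries against 99 and 88 in the Control libraries (-1.32, SE 0.21). Mgst2, a microsomal glutathione S-transferase, had 77 and 88 counts against 127 and 153 (-0.81, SE 0.17). Mgst3, a related transferase, rose to 49.2 CPM in shMettl3 libraries against 26.2 CPM in Control libraries (0.91, SE 0.10). Without Control replicate 2, and with TPM, the number that rose was 2. In the list of breakdown and transport 0 of 10 rose and 5 fell, beside 21.4% and 22.3% of all tested genes, with a median of -0.36. Abcc1, which exports leukotriene C4, fell to 245 and 253 CPM in the shMettl3 libraries against 693 and 771 CPM in the Control libraries (-1.56, SE 0.08). Abcc4, an exporter of prostaglandins (-0.45, SE 0.08), and Dpep2, a dipeptidase that converts leukotriene D4 (-0.73, SE 0.07), also fell. The cytochrome P450 gene Cyp4f13 (-1.09) and the epoxide hydrolase gene Ephx1 (-0.59) completed the 5. With library size alone and with TPM 2 genes of this list rose, and with FPKM, without Control replicate 2 and with the replicate block 1 gene rose.

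**Figure D3:**
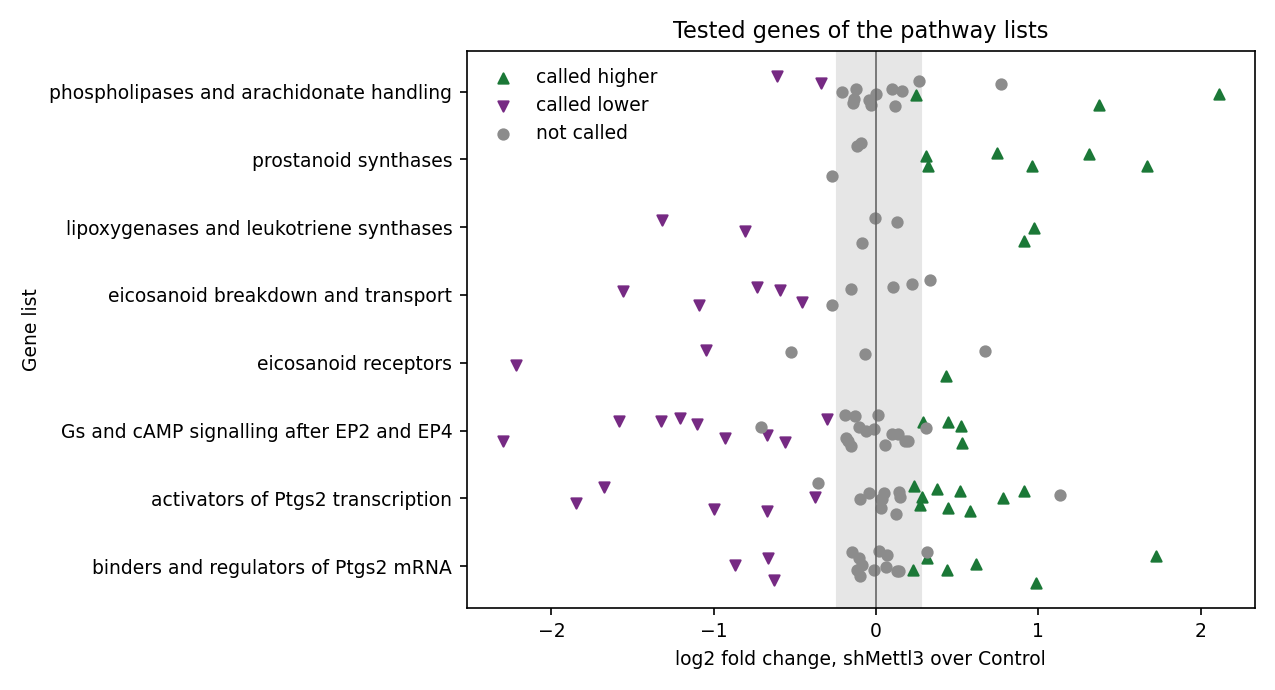
Log2 fold change, shMettl3 over Control, of every tested gene of the 8 pathway lists, the 10 eicosanoid genes included. Upward triangles are genes called higher, downward triangles genes called lower and grey circles genes not called, and the grey band is the interquartile range of all tested genes. Of all tested genes 21.4% are called higher and 22.3% lower. Ptgs1 and Tbxas1 came into the test through the group where they are high, and without them 4 of 7 prostanoid synthases are called higher. In the prostanoid synthases 6 of 9 are called higher (2 without shMettl3 replicate 1), and in breakdown and transport 5 of 10 are called lower.

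Among the other eicosanoid receptors 1 of 5 tested rose and 2 fell, with a median of -0.53. Ptgir, the prostacyclin receptor, fell to 37.0 and 40.9 CPM in the shMettl3 libraries against 76.8 and 84.3 CPM in the Control libraries (-1.05, SE 0.08). Ptger2, which encodes EP2, fell on few reads, with 2 and 4 counts in the shMettl3 libraries against 14 and 14 in the Control libraries (-2.22, SE 0.52, adjusted p = 0.00545 in edgeR), and it was not called in DESeq2 (0.073) or without shMettl3 replicate 1 (0.0932). Neither shMettl3 library reached the minimum count, so Ptger2 came into the test through the Control group, and without it 1 of 4 receptors rose and 1 fell, with a median of -0.05. Cysltr1, a receptor for cysteinyl leukotrienes, rose (0.43, SE 0.15, adjusted p = 0.0437 in edgeR). It was not called in DESeq2, with voom weights or when robust fitting was turned off, nor without shMettl3 replicate 1 or Control replicate 2, and without shMettl3 replicate 2, and with TPM, the list had 2 genes that rose. By TPM Ptger4 was the more abundant of the 2 Gs-coupled PGE2 receptors, with a mean of 4.40 TPM in shMettl3 and 4.13 TPM in Control libraries, beside 0.135 TPM and 0.51 TPM for Ptger2. In the list of Gs and cyclic AMP signalling that follows EP2 and EP4, 4 of 29 tested genes rose and 9 fell, with a median of -0.13. Prkar2b, a regulatory subunit of protein kinase A, had the lowest value (-2.30, SE 0.15). The phosphodiesterase gene Pde8a (-1.58), Arrb1, which encodes a beta-arrestin (-1.32), and the adenylyl cyclase gene Adcy2 (-1.10) fell as well. The 4 that rose were Gng2, Akap13, Creb1 and Pde4b. With library size alone 8 rose and with TPM 9 rose.

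The regulators of Ptgs2 moved in both directions. Among 25 genes whose proteins are known to act on Ptgs2 transcription 9 rose and 5 fell, with a median of 0.12, and with TPM 14 rose. Fosb, which was not called, reached the minimum count in neither Control library and came into the test through the shMettl3 group. Without Fosb 9 of 24 rose and 5 fell, with a median of 0.09. Cebpd, the C/EBP factor induced in inflammation, rose to 173 and 173 CPM in the shMettl3 libraries against 90.9 and 92.5 CPM in the Control libraries (0.91, SE 0.07). Cebpa, the C/EBP factor of the myeloid lineage, fell (-1.67, SE 0.11). So did Fos, a subunit of AP-1 (-1.85, SE 0.08), and Nfatc1, a factor activated by calcineurin (-0.998, SE 0.08). Usf2 and Egr1 completed those that fell. The others that rose were Nfkb2, Rel, Rela, Creb1, Atf2, Jun, Usf1 and Crebbp. The calls of Nfkb2, Rel, Rela and Atf2 were each lost in at least 1 alternative. Among 21 tested genes whose proteins bind or regulate Ptgs2 mRNA or AU-rich mRNA 6 rose and 3 fell, with a median of 0.06. Of these, Igf2bp3 rose with 40 and 39 counts in the shMettl3 libraries against 16 and 7 in the Control libraries. Only 1 Control library reached the minimum count of the filter, so Igf2bp3 came into the test through the group where it is high. Without Igf2bp3 5 of 20 rose and 3 fell, with a median of 0.04. The 3 tested genes of the ZFP36 family, whose proteins bind AU-rich elements and promote decay, did not move together. Zfp36, which encodes tristetraprolin, rose to 376 CPM in shMettl3 libraries against 278 CPM in Control libraries (0.44, SE 0.07). Zfp36l1 rose with 42 and 48 counts in the shMettl3 libraries against 22 and 22 in the Control libraries (0.99, SE 0.26), a call lost in DESeq2 (adjusted p = 0.105) and without shMettl3 replicate 2 (0.085). Zfp36l2 fell (-0.87, SE 0.08). Rc3h1, which encodes the RNA-binding protein roquin, rose by 0.62 (SE 0.09). Igf2bp2, an m6A reader (-0.67, SE 0.07), and Mapk14, the kinase p38 alpha (-0.63, SE 0.07), fell. The shares of genes that rose and fell in these lists are to be read beside the 21.4% and 22.3% of all tested genes.

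**Figure D4:**
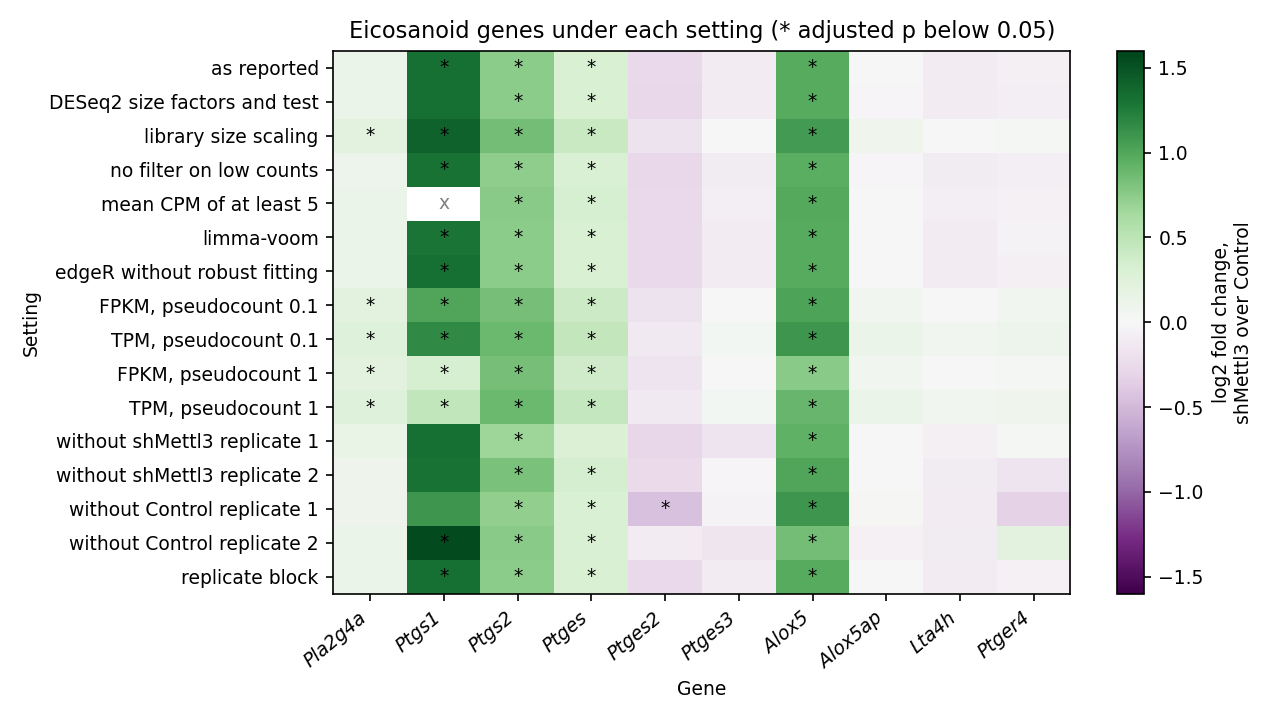
Log2 fold change, shMettl3 over Control, of the 10 eicosanoid genes (columns) as reported and under each of 15 other settings (rows). Green is higher and purple lower in shMettl3, an asterisk marks an adjusted p below 0.05 and a cross a gene below the filter of that setting. Ptgs2 and Alox5 carry an asterisk in every row.

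The plot of the settings shows which calls rest on the choice of method. Ptgs2 and Alox5 were called higher in every setting run, and Ptges in all but 1. Ptgs1 was called in 10 of the 14 alternatives that could test it. Ptges3, Alox5ap, Lta4h and Ptger4 were not called in any setting.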

How the data were processed

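Estimated counts, FPKM and TPM per gene and library were read from the authors' deposited table of 14435 genes with Entrez identifiers. The tools listed per the submitters' processing notes are RSEM 1.2.12, Bowtie2 2.2.5 and HISAT2 2.0.4, with build mm9 and no word on their roles. Neither gene models nor strand setting is given in the sources read here. Per the labels' protocols, poly(A)-primed cDNA was amplified by PCR and read from 1 end, and no molecular identifiers are named. Errors cover counting and the spread between libraries, and the labels do not say whether that spread includes separate cultures. The estimated counts deposited were whole for all 10 eicosanoid genes and fractional for 1808 genes of the table. The FPKM and TPM values were deposited as length-scaled values, and TPM is used here to compare genes.

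Counts were rounded and tested in edgeR 4.0.16 (R 4.3.3) with TMM factors, robust quasi-likelihood fitting and filterByExpr (minimum count 10, minimum total 15), which kept 11035 genes. SE was obtained by dividing the log2 fold change by the root of the F statistic. The procedure was run on simulated counts in which 200 genes were changed, far fewer than the 4826 called here. That run checks the code and does not measure the error rate in these data. Alternatives used DESeq2 1.42.0 and limma 3.58.1 (log2 of FPKM or TPM plus a pseudocount of 0.1 or 1). Motifs were counted in RefSeq promoters (GRCm38.p6) and GENCODE M21 transcripts (GRCm38), a later build than mm9, and no other coordinates are given. The genes, lists and tests were chosen with earlier results of these data known. Named list genes are, per list, up to 4 by size of log2 fold change. They are taken from genes called, without overlap between groups and averaging 10 CPM or more in the group where they are higher. Named after their values were seen were Tbxas1, Pla2g2e, Ltc4s, Mgst2, Abcc4, Ptger2, Zfp36, Zfp36l1, Igf2bp3, Fosb, Fap, Pdgfrb, Fcgr1, Spi1, Vwf and Pf4. So were those named without values beyond this. Leaving out genes below the minimum count in a library was also chosen then.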

Additional observations from a re-analysis of the deposited data

How the results depend on the processing

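Changes were compared under 15 alternatives. Of the 10 eicosanoid genes 4 were called higher, and between 2 and 4 with 1 library left out; between 0 and 1 were called lower in those fits. Over all genes 2360 rose and 2466 fell. With 1 library left out between 1503 and 2543 rose and between 1592 and 2781 fell, and with TPM 1498 and 1505 fell under the pseudocounts 0.1 and 1, beside 3506 and 3510 that rose. The share of calls that rose was 48.9%, and 64.1% with library size alone, 63.2% and 63.5% with FPKM and 70.1% and 70.0% with TPM. The counts of pathway genes stand beside the 21.4% of all tested genes that rose and the 22.3% that fell. With Tbxas1, Ptger2, Fosb and Igf2bp3 left out as below the minimum count in a library, 24 of 109 other pathway genes rose and 27 fell. Over the 113 other pathway genes 28 fell, and between 25 and 34 under the alternatives, while 26 rose, 41 with library size alone, 45 with TPM under either pseudocount, and between 16 and 29 with 1 library left out.

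The sign turned for genes near no change. Ptges3 was 0.0018 with library size alone and 0.0446 and 0.0444 with TPM. Alox5ap was 0.0872 with library size alone, 0.0001 with a mean CPM of at least 5, 0.0665 and 0.0662 with FPKM, 0.12 with TPM under either pseudocount, and between -0.0544 and 0.022 with 1 library left out. Lta4h was 0.0061 with library size alone and 0.053 and 0.0514 with TPM. Ptger4 was 0.0268 with library size alone, 0.0501 and 0.0342 with FPKM, 0.10 and 0.0841 with TPM, and between -0.33 and 0.22 with 1 library left out. None of these was called, and the cause was not tested.

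With the replicate block 2548 genes rose and 2568 fell, and 4 of the 10 genes rose and 0 fell. Libraries of the same number deviated together with a correlation of 0.15 across genes, but the labels give them only a shared number. Fits without 1 library take the spread of that group from the other one. Depth limits Ptgs1, Ptger2 and Tbxas1, whose counts were between 2 and 32 per library.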
